A study of Mus musculus with 8 samples.

Results

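The neuromuscular junction (NMJ) region of the β-cat cKO diaphragm at E18.5 is described here, as 237 spots of 1 section set beside 464 and 330 NMJ spots of 2 control sections of the same age. NMJ spots were chosen by a rule on measured values. Among spots with at least 1000 UMIs (unique molecular identifiers, 1 per captured probe pair), muscle spots were those with a mean level of 9 sarcomere and calcium-release genes above a threshold set within the section (*Acta1*, *Actn2*, *Des*, *Myl1*, *Mylpf*, *Neb*, *Ryr1*, *Tnnt3* and *Ttn*). Muscle spots were then scored by the z-scores of 7 synaptic genes, averaged (*Chrna1*, *Chrnd*, *Musk*, *Ache*, *Etv5*, *Prkar1a* and *Ufsp1*), and the top 15% were called NMJ spots. They are 237 of 1577 muscle spots and of 2166 spots under tissue in the β-cat cKO section, 464 of 3092 and 3478 in control 1, and 330 of 2199 and 2527 in control 2, out of 12771 spots under tissue in the 8 sections of the series. Since the share was fixed, the number of NMJ spots says nothing about the extent of synapses.

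The series measured gene expression in formaldehyde-fixed, 5 µm thick mouse diaphragm sections with a spatial assay, in which each spot of the slide captures probes from a small patch of tissue that can hold several fibers and cell types. The β-cat cKO embryo came from a cross of HSA-Cre mice with mice carrying floxed alleles of *Ctnnb1*, the gene of β-catenin. HSA-Cre is driven by a skeletal muscle actin promoter, so the deletion is aimed at muscle fibers and not at motor neurons, Schwann cells or other cells in the spots. The parents on both sides also carried 1 null allele of CaV1.1, the voltage sensor of excitation-contraction coupling. Control embryos kept at least 1 expressed allele of both genes, and which CaV1.1 alleles the β-cat cKO embryo carried is not given in the sources used here. The question here is what the synaptic region of the fetal diaphragm expresses when muscle fibers lack β-catenin. The β-cat cKO has 1 section and therefore no replicate of its own. Beside these 3 sections the series holds 3 control sections at E14.5 and 1 CaV1.1-/- section at each of E14.5 and E18.5, which entered the fits as groups of their own.

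At the NMJ, nerve-derived agrin binds LRP4 on the muscle fiber and activates the kinase MuSK, which gathers acetylcholine receptors (AChR) under the nerve terminal. The few myonuclei below the terminal transcribe synaptic genes at a high level, while electrical activity lowers receptor transcription in the rest of the fiber. The embryonic receptor contains the γ subunit, which is replaced by the ε subunit as the synapse matures. β-catenin links cadherins to the cytoskeleton and also carries canonical Wnt signals to the nucleus, and in muscle it is known for its part in the prepattern of AChR clusters and in retrograde signals to the motor axon.

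NMJ spots touched each other less often in the β-cat cKO than in the controls, and their largest connected group was smaller. Their position along the muscle fibers was not measured. In the β-cat cKO 85.2% of NMJ spots touched another NMJ spot, against 93.5% in control 1 and 92.7% in control 2. The largest connected group held 31 spots in the β-cat cKO, 262 in control 1 and 86 in control 2, and 35, 30 and 24 spots stood alone. Group sizes also depend on the number of NMJ spots, which was 237, 464 and 330, and the largest group differed widely between the controls. With 1 mutant section these values allow no test. The looser grouping of NMJ spots goes with the gene levels given below, and its part in them was not tested.

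**Figure D1:**
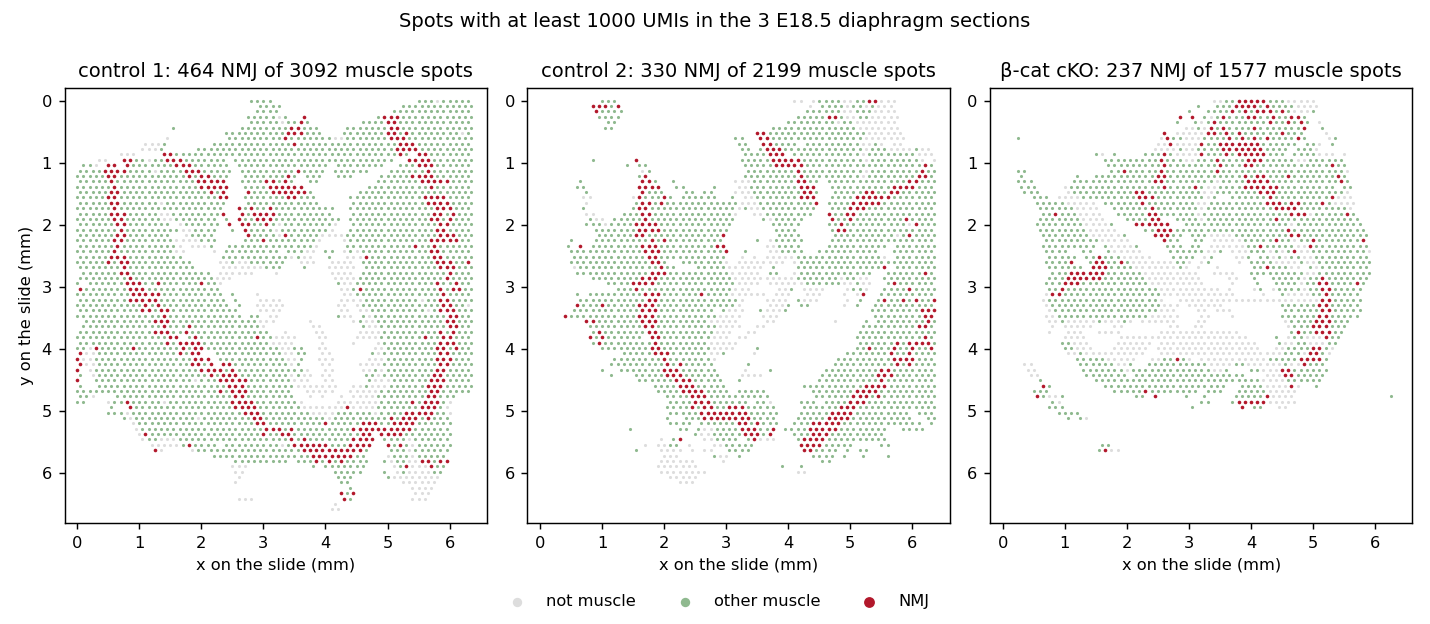
Position on the slide (x and y in mm) of the spots with at least 1000 UMIs in control 1, control 2 and β-cat cKO, with NMJ spots in red, other muscle spots in green and remaining spots in grey. The largest connected group of NMJ spots holds 262, 86 and 31 spots.

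The NMJ spots summed to 6932886 UMIs in the β-cat cKO, 11952642 in control 1 and 10230758 in control 2, with medians of 28838, 24272.5 and 30314.5 UMIs per spot. Counts were scaled as TMM-normalised counts per 1000000 UMIs (CPM), which suits the comparison of 1 gene between sections. CPM cannot rank genes against each other, because capture differs between probes. The least synaptic NMJ spot of the β-cat cKO had a score of 0.4633 and the best muscle spot outside the region 0.456, and these were 0.4479 and 0.447 in control 1 and 0.3899 and 0.3867 in control 2. The 9 muscle genes made up 9.58% of the UMIs in the NMJ spots of the β-cat cKO, 11.8% in control 1 and 12.7% in control 2. These genes also chose the muscle spots, with a cut on their mean level of 3.20 in the β-cat cKO, 3.79 in control 1 and 3.58 in control 2. The rule therefore let in spots with a lower muscle score in the β-cat cKO. This choice, fewer muscle cells in a spot and less muscle RNA per cell cannot be told apart here. When counts were scaled to the sum of these muscle genes instead, the median gene moved by 0.54 on the log2 scale toward the β-cat cKO. On that scale a gene that follows the muscle genes stands near 0, and a gene that follows the median gene stands near 0.54.

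Control 1 carried RNA of neighbouring organs. In its NMJ spots the summed level of 6 hepatocyte markers was 442 CPM before TMM (raw CPM), against 0.293 in control 2 and 2.31 in the β-cat cKO, and that of 6 cartilage markers was 1049.5, 49.5 and 9.23 raw CPM. In the β-cat cKO a UMI of *Krt4*, a keratin of stratified epithelium, was present in 147 of 237 NMJ spots and in 862 of 1340 other muscle spots, against 1 of 464 and 0 of 330 control NMJ spots, the latter with a Clopper-Pearson upper bound of 1.11%. Genes of liver, cartilage and epithelium are therefore not read as NMJ genes, and each count was repeated without the spots rich in them. This left out 116 NMJ spots of control 1, 2 of control 2 and 3 of the β-cat cKO, so it acts on control 1 and leaves most spots with epithelial RNA in the β-cat cKO.

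The AChR subunit genes did not move together. The γ subunit gene *Chrng* was at 212 CPM in control 1, 197 in control 2 and 420 in the β-cat cKO. *Chrng* rose by 1.04 ± 0.18 on the log2 scale (SE, edgeR adjusted p = 0.0052). *Chrne*, which encodes the adult ε subunit, was at 22.3, 24.1 and 7.19 CPM and fell by 1.69 ± 0.29 (edgeR adjusted p = 0.0042). For both genes the β-cat cKO value lay outside the range of the controls, as it did for 79.1% of all genes. The β subunit gene *Chrnb1*, with 174, 188 and 161 CPM, did not pass the test (log2 difference −0.16 ± 0.14, edgeR adjusted p = 0.51). *Chrna1* and *Chrnd*, the α and δ subunit genes, chose the spots and have no test. They were at 341, 352 and 421 CPM and at 238, 244 and 264 CPM, in the β-cat cKO slightly above both controls. On spots chosen without *Chrna1* itself, its levels were 330, 343 and 381 CPM.

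The raw counts behind *Chrne* were 210 and 189 UMIs in the controls and 44 in the β-cat cKO. A *Chrne* UMI was found in 36 of 237 NMJ spots of the β-cat cKO, or 15.2% (95% Clopper-Pearson interval 10.9 to 20.4), against 32.1% (27.9 to 36.6) and 37.6% (32.3 to 43.0) in the controls. After each spot was thinned to 5000 UMIs, with 5, 1 and 0 shallower spots left out, the shares were 2.59% (0.955 to 5.54) in the β-cat cKO and 9.07% (6.62 to 12.1) and 8.48% (5.71 to 12.03) in the controls. Away from the synapse, 1.34% of other muscle spots of the β-cat cKO and 3.01% and 3.69% of those of the controls held a *Chrne* UMI before thinning. These intervals cover counting error within a section and not the variation between embryos.

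*Chrng* was also higher outside the NMJ spots. In the rest of the muscle it was at 99.5 and 83.9 CPM in the controls and 202 in the β-cat cKO, and the ratio of NMJ spots to other muscle was 2.15, 2.36 and 2.09. The difference between genotypes in this ratio was −0.11 ± 0.09 on the log2 scale and did not pass the test (edgeR adjusted p = 0.87). *Chrna1* was at 69.9 and 65.4 CPM in other muscle of the controls and 117 in the β-cat cKO. Other muscle is what a score containing *Chrna1* left over in each section, so these levels are a description and add no support. At E14.5 the NMJ spots of 3 controls held *Chrng* at 623, 525 and 441 CPM and *Chrne* at 2.48, 1.73 and 0.808 CPM, so the E18.5 β-cat cKO values of both genes lie between those of the controls of the 2 ages.

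*Chrng* lies at chr1:87204657-87212694 on the plus strand, *Chrna1* at chr2:73563215-73580338 and *Chrne* at chr11:70614883-70619216 on the minus strand (GRCm38). Their start-proximal sequences are shown because *Chrng* rose, *Chrne* fell and *Chrna1* defined the region. Each line gives the 250 bases before the RefSeq transcript start on the gene's strand (build GRCm38.p6, chr2:73580339-73580588, chr1:87205561-87205810 and chr11:70619195-70619444), with capitals for E-boxes (CANNTG, the letters bound by myogenic factors) and N-boxes (CCGGAA, letters bound by ETS factors), searched on both strands.
*Chrna1*: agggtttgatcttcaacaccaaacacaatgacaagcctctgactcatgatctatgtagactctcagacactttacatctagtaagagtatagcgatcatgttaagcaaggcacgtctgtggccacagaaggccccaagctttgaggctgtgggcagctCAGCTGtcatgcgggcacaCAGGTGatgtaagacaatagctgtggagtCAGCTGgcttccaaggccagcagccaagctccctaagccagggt
*Chrng*: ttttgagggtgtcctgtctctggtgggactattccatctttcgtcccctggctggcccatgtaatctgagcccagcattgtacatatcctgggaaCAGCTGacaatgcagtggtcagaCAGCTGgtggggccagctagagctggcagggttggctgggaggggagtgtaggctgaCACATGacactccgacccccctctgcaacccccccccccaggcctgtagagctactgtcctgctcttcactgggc
*Chrne*: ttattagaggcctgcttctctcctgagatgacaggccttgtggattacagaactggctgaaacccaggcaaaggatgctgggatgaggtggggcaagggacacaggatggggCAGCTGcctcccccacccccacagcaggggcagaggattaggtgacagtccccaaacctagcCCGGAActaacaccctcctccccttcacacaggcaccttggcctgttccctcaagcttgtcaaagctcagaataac
The *Chrna1* and *Chrng* windows hold 3 E-boxes each and no N-box, and the *Chrne* window holds 1 E-box and 1 N-box, whose inner edge is 70 bases before the start. Among 32851 windows of this length CANNTG occurs in 66.2%, and CCGGAA in 12.03%. The matches are a description and were not tested for binding. The gene spans above are from GENCODE and the starts from RefSeq, and they do not always meet. The *Chrng* window lies inside the span given for its gene, and the *Chrne* window overlaps the edge of its span.

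**Figure D2:**
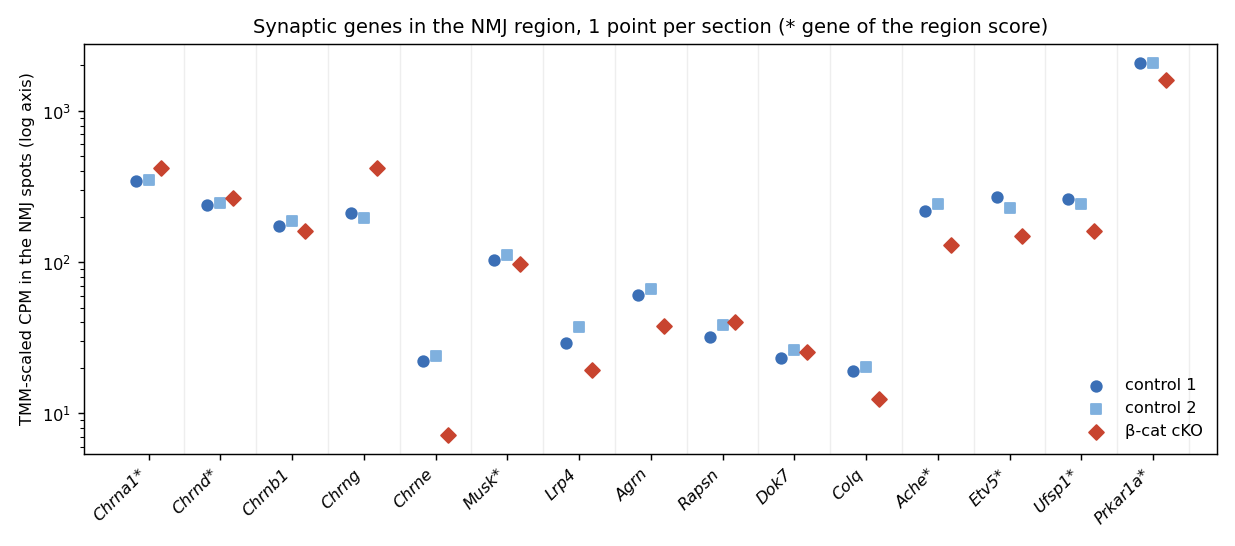
TMM-scaled CPM (log axis) of 15 synaptic genes in the NMJ spots of control 1, control 2 and β-cat cKO, 1 point per section and no error bars, with an asterisk at the 7 genes that chose the spots. *Chrng* is at 420 CPM in the β-cat cKO and 212 and 197 CPM in the controls, and *Chrne* at 7.19 against 22.3 and 24.1 CPM.

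The remaining score genes were lower in the β-cat cKO than in both controls, as a description without a test. *Ache*, encoding acetylcholinesterase, was at 218 and 242 CPM in the controls and 130 in the β-cat cKO. The ETS factor gene *Etv5* was at 269, 226 and 149 CPM, *Ufsp1* at 262, 241 and 161, *Prkar1a*, a regulatory subunit of protein kinase A, at 2084, 2064 and 1594, and *Musk* at 103, 112 and 96.9. The ratio of NMJ spots to other muscle was below both controls for the score genes. It was 3.63 against 4.94 and 5.41 for *Chrna1* and 6.06 against 7.81 and 6.56 for *Ache*. These genes chose both sides of the ratio, so no count over them is read as a result. With z-scores pooled over the sections compared, 291 spots were NMJ spots in the β-cat cKO, 442 in control 1 and 297 in control 2. The fixed share gave 237, 464 and 330, so it took fewer spots of the β-cat cKO than pooling did. The part of this in the lower ratios was not tested.

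Of the genes not used by the rule, 12948 passed the filter on low counts, and edgeR called 1273 (9.83%) at an adjusted p under 0.05, 431 higher (3.33%) and 842 lower (6.5%) in the NMJ region of the β-cat cKO. At least 2-fold differences were seen in 166 of the higher and 350 of the lower genes, and 3261 genes had an unadjusted p under 0.05. With counts scaled to the muscle genes the split reversed to 4182 higher and 215 lower of the 12948, which is the shift of 0.54 described above. All list counts on the scale of the muscle genes given below are to be read beside these numbers. The spread in this fit comes from the replicated control groups and is shared across genes, and the lone β-cat cKO section is assumed to vary like them.

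Around MuSK, 3 of 13 genes fell and none rose, beside 6.5% lower and 3.33% higher over all genes. The median log2 difference of the 13 was −0.39, against 0.0022 over all genes. *Lrp4*, the agrin receptor, was at 29.3 and 37.4 CPM in the controls and 19.3 in the β-cat cKO (−0.79 ± 0.21, edgeR adjusted p = 0.035). *Agrn*, which encodes agrin, was at 60.8, 66.6 and 38.1 CPM (−0.74 ± 0.14, adjusted p = 0.0076). The MuSK adaptor gene *Dok7* (23.2, 26.3 and 25.6 CPM) and *Rapsn*, which encodes the AChR anchor rapsyn (32.0, 38.6 and 40.3 CPM), did not pass the test. *Colq*, the collagen tail of acetylcholinesterase, was at 18.9, 20.4 and 12.4 CPM with an adjusted p of 0.081. The call of *Lrp4* was lost without control 2 (adjusted p = 0.096) and without 1 of the E14.5 controls (0.055). Scaled to the muscle genes, none of the 13 was lower and 3 were higher, and DESeq2 called 1 lower.

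Of 27 genes of canonical Wnt signalling and its targets, through which β-catenin acts on transcription, 8 fell and none rose. Over all genes 6.5% fell and 3.33% rose. *Axin2*, the feedback inhibitor used as a standard target, was at 79.3 and 103 CPM in the controls and 27.1 in the β-cat cKO and fell by 1.74 ± 0.18 (edgeR adjusted p = 0.0003). *Notum*, a secreted Wnt deacylase, was at 13.8, 16.5 and 2.61 CPM (−2.52 ± 0.36, adjusted p = 0.0018). *Sp5*, a transcription factor gene downstream of Wnt, had 29 and 42 UMIs in the control NMJ spots and 2 in the β-cat cKO, or 2.43 (95% Poisson interval 1.62 to 3.48), 4.11 (2.96 to 5.55) and 0.288 (0.0349 to 1.04) raw CPM (−3.59 ± 0.92, adjusted p = 0.032, or 0.098 without control 2).

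Further members that fell were *Dkk2*, a secreted Wnt modulator, with 9.68, 11.2 and 4.08 CPM, the cyclin gene *Ccnd1* with 126, 119 and 57.8, the co-receptor gene *Lrp5* with 37.1, 43.7 and 21.6, *Znrf3*, a ligase that removes Wnt receptors, with 52.3, 56.3 and 33.3, and *Dvl1*, a signal transducer, with 117, 133 and 77.1. *Lef1* and *Tcf7*, the DNA-binding partners of β-catenin, had 75 and 65 against 25 UMIs and 22 and 26 against 7 UMIs and did not pass the test. *Ctnnb1* itself was at 106, 98.6 and 96.1 CPM (−0.09 ± 0.14, adjusted p = 0.74). Where its probes lie relative to the deleted exons is not given in the sources used here, so this level does not check the genotype label. *Axin2*, *Notum* and *Sp5* were lower in other muscle too, at 25.04, 1.56 and 0.607 CPM against 90.2 and 114, 9.21 and 12.1, and 5.02 and 6.69 in the controls. For no Wnt gene did the NMJ-to-muscle ratio pass the test of edgeR. Scaled to the muscle genes, 3 of the 27 were lower and 6 higher, beside 215 lower and 4182 higher of all 12948 genes. DESeq2 called 3 lower.

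Among 12 genes of cadherin adhesion, the second role of β-catenin, 1 rose and 2 fell, beside 3.33% and 6.5% of all genes. The α-catenin gene *Ctnna3* was at 170 and 150 CPM in the controls and 96.1 in the β-cat cKO (−0.74 ± 0.16, edgeR adjusted p = 0.013), and the cadherin gene *Cdh13* at 181, 177 and 132 CPM. The plakophilin gene *Pkp2* rose from 8.51 and 8.43 to 17.8 CPM (1.07 ± 0.26, adjusted p = 0.027). *Jup*, which encodes plakoglobin, the closest relative of β-catenin, was at 175, 211 and 144 CPM and did not pass the test. On the scale of the muscle genes 4 of the 12 were higher and none lower, beside 4182 higher and 215 lower of all 12948 genes.

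The central genes that the study itself picked from these sections are not independent evidence of a direction. Of 33 such genes, 19 fell, 2 rose and 12 did not pass the test, with a median log2 difference of −0.72. Over all genes 6.5% fell and 3.33% rose. *Ddit4l*, an inhibitor of mTOR signalling, was at 116 and 142 CPM in the controls and 11.6 in the β-cat cKO (−3.47 ± 0.29, edgeR adjusted p = 6.1e-05). *Lrtm1*, a leucine-rich repeat membrane protein gene, was at 240, 263 and 37.7 CPM (−2.74 ± 0.15, adjusted p = 4.6e-06). *Col25a1*, a membrane collagen that motor axons need to enter the muscle, was at 36.9, 40.7 and 11.1 CPM (−1.80 ± 0.20, adjusted p = 0.00047).

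*Mt3*, a metallothionein gene, was at 55.1, 78.8 and 14.0 CPM, and *Cd24a*, a membrane glycoprotein gene, at 84.5, 82.7 and 32.0. The Dickkopf receptor gene *Kremen1* was at 307, 309 and 133 CPM, and *Metrn*, encoding the secreted factor meteorin, at 102, 90.4 and 46.7. All 4 fell, with edgeR adjusted p-values of 0.00045, 0.0014, 0.00092 and 0.0035. *Macf1*, a microtubule and actin crosslinker, rose from 206 and 201 to 391 CPM (0.95 ± 0.14, adjusted p = 0.0022), and *Ablim3*, an actin-binding protein gene, from 117 and 89.999 to 173 CPM (0.74 ± 0.21, adjusted p = 0.048). Scaled to the muscle genes, 9 of the 33 were lower and 6 higher.

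Genes that carry signals between muscle and nerve moved in both directions, 3 of 25 higher and 5 lower, beside 3.33% and 6.5% of all genes. *Gdnf*, a survival factor for motor neurons, gave 80 and 99 UMIs in the controls and 9 in the β-cat cKO, or 6.69 (5.31 to 8.33), 9.68 (7.86 to 11.8) and 1.30 (0.594 to 2.46) raw CPM, and fell by 2.82 ± 0.51 (edgeR adjusted p = 0.0055). *Vegfa*, the angiogenic factor, was at 115, 129 and 56.2 CPM, and *Lamb2*, a laminin chain of the synaptic basal lamina, at 85.4, 109 and 54.4. *Fgf7*, an organiser of presynaptic terminals, was at 30.6 and 29.4 CPM in the controls and 73.5 in the β-cat cKO (1.29 ± 0.15, adjusted p = 0.00046). The receptor phosphatase genes *Ptprd* and *Ptprf* also rose, from 32.5 and 28.5 to 49.3 CPM and from 39.7 and 45.3 to 63.5 CPM. Relative to the muscle genes 7 of the 25 were higher and 2 lower, beside 4182 higher and 215 lower of all 12948 genes.

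A second test asked which genes differed between genotypes in the ratio of NMJ spots to other muscle of the same section. It called 117 of 14337 genes (0.816%), 41 with a larger ratio in the β-cat cKO (0.286%) and 76 with a smaller one (0.53%), and 1157 genes had an unadjusted p under 0.05. The count depends on the fit, with 66 and 64 genes when control 1 or control 2 was left out and 7 with DESeq2, all 7 of them among the 117. Both tests of edgeR called 72 genes in common. This second fit has 3 residual degrees of freedom, and its spread is for the most part shared across genes. Very small p-values of the ratio rest on that sharing and do not measure variation between mutant embryos.

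Outside the score 12 genes were at least 2-fold higher at NMJ spots in both controls. Because they were taken for a high ratio in the controls, a lower ratio in the β-cat cKO is favoured by the choice, and no count over them is read as a result. Single genes are given with the test across all genes. *Scn3b*, a sodium channel β subunit gene, was 5.83 and 5.19 times higher at NMJ spots of the controls and 2.62 times in the β-cat cKO (difference −1.08 ± 0.10 on the log2 scale, edgeR adjusted p = 5.8e-17). *Scn3b* was at 220, 174 and 136 CPM at NMJ spots, a difference that did not pass the test. In other muscle *Scn3b* was at 38.1 and 33.8 CPM in the controls and 52.3 in the β-cat cKO. *Calcrl*, the receptor component for calcitonin gene-related peptide, had ratios of 3.42, 3.37 and 1.78, *Myzap*, a junction protein gene, 3.09, 3.63 and 1.74, and *Efnb1*, an ephrin gene, 2.28, 2.09 and 1.34. Enrichment of *Cd24a* (3.97, 3.42 and 3.31), *Akap11*, a protein kinase A anchor (2.73, 2.59 and 2.55), and *Chrng* did not pass the test, whereas *Map3k7cl* was more enriched in the β-cat cKO (2.16, 2.49 and 2.95, adjusted p = 0.040).

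**Figure D3:**
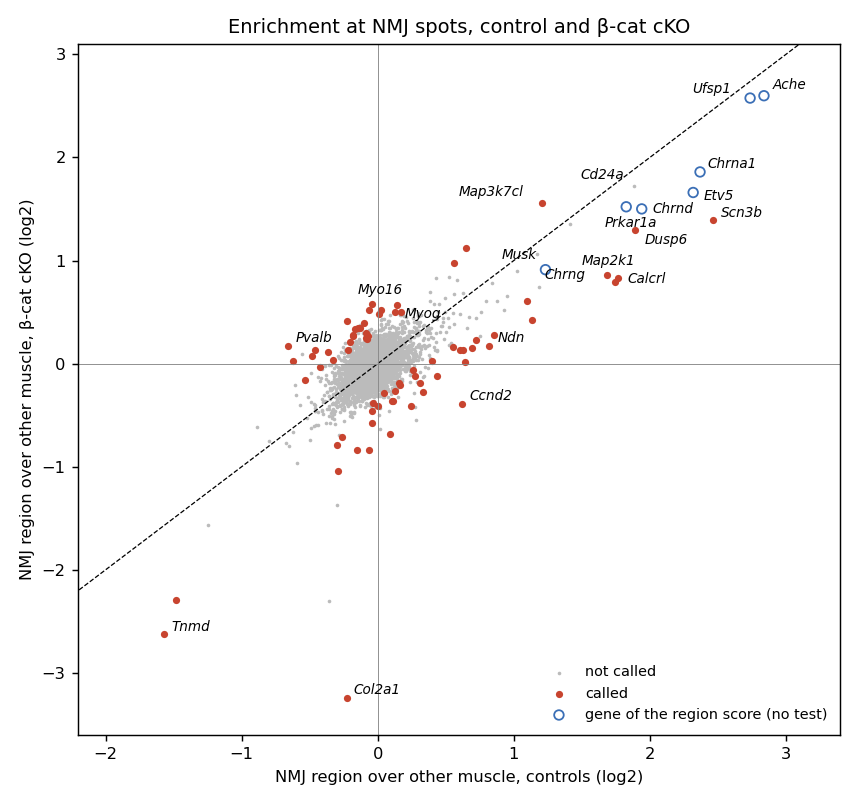
Log2 ratio of NMJ spots to other muscle in the controls (x axis) and the β-cat cKO (y axis) for genes whose average log2 CPM reached 5, with called genes in red and the 7 score genes as open circles. *Scn3b*, *Map2k1* and *Dusp6* lie below the dashed line of equal ratios, *Chrng* close to it and *Map3k7cl* above it.

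Members and targets of the ERK pathway, which acts upstream of ETS factors such as *Etv5*, were among the genes with a smaller ratio. *Map2k1*, which encodes the kinase MEK1, was at 464 and 377 CPM in the control NMJ spots and 220 in the β-cat cKO (−0.93 ± 0.19, edgeR adjusted p = 0.0097), but at 138, 126 and 122 CPM in other muscle. Its ratio was 3.39 and 3.02 in the controls and 1.81 in the β-cat cKO (difference −0.83 ± 0.09, adjusted p = 8.3e-13). *Dusp6*, an ERK phosphatase induced by ERK, was at 287, 280 and 188 CPM at the NMJ and at 76.9, 77.0 and 76.9 in other muscle (difference of ratios −0.60 ± 0.09, adjusted p = 7.1e-07).

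*Etv4*, the closest relative of *Etv5*, was at 31.9, 26.9 and 11.3 CPM at the NMJ and at 8.0, 7.64 and 10.5 in other muscle (difference −1.81 ± 0.22, adjusted p = 3e-11). These 3 of 15 pathway genes fell in the NMJ spots and also in the ratio, and none rose. Over all genes 6.5% fell in the NMJ spots and 0.53% had a smaller ratio. With muscle scaling 1 of the 15 was lower and none higher. The level of *Dusp6* lost its call in 5 of 15 alternatives, among them without control 1 or control 2 (adjusted p = 0.058 in both), without 1 of the E14.5 controls (0.079) and with muscle scaling (0.86), and its ratio did not pass with DESeq2 or with muscle scaling, while the ratios of *Scn3b*, *Map2k1* and *Etv4* were called in all 15 alternatives. *Spry1*, *Spry2*, *Spry4*, *Spred1*, *Spred2*, *Mapk3* and *Map2k2* did not pass either test. In the protein kinase A list *Pde4d*, a phosphodiesterase gene, fell (134, 129 and 54.2 CPM), as did the regulatory subunit gene *Prkar2a* (242, 285 and 113) and the inhibitor gene *Pkia* (263, 264 and 147), and *Prkar2b* rose (27.5, 17.1 and 45.2). With muscle scaling 2 of these 11 genes were lower and 2 higher.

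Levels were also followed by distance from the NMJ spots. In raw CPM *Etv4* was 3.75 and 2.82 times higher at NMJ spots of the controls than at muscle spots 400 µm or more away, and 0.886 times in the β-cat cKO. The farthest spots are not the lowest for *Etv4*. In the β-cat cKO it was at 9.95 at NMJ spots, 6.35, 8.95 and 6.91 at 100, 200 and 300 µm, and 11.2 beyond. In the controls it was at 3.71 and 4.38 at 300 µm and at 6.70 and 7.30 beyond. *Map2k1* stood at 3.95, 3.4 and 1.94 times its far level and *Scn3b* at 6.89, 5.99 and 3.09 times. *Chrng*, at 2.54, 2.59 and 2.42 times, differed little between the sections. *Myog*, a myogenic regulator, was nearly flat in the controls, at 1.2 and 1.19 times, and 1.67 times higher at NMJ spots than far away in the β-cat cKO.

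**Figure D4:**
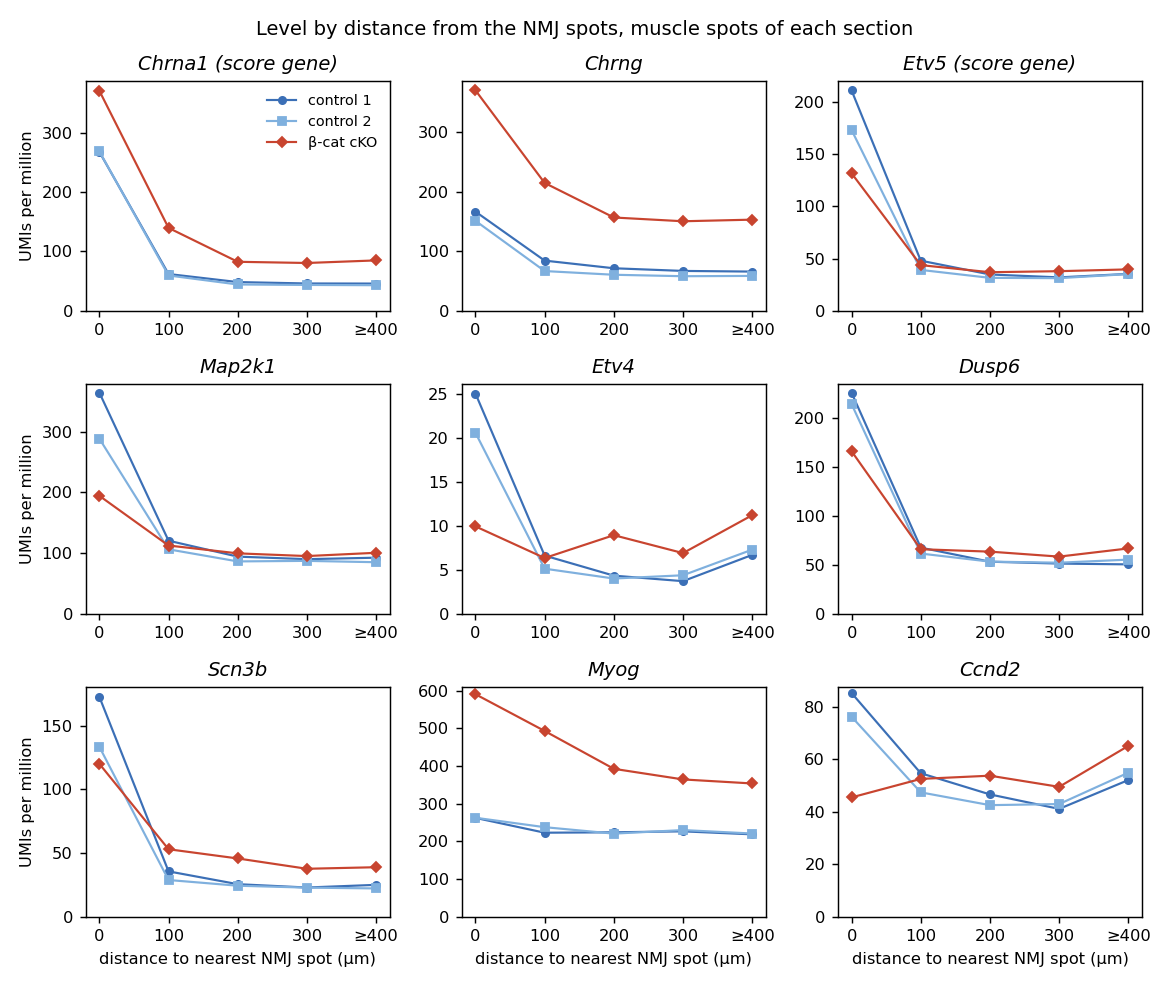
Level in raw CPM (UMIs per 1000000, y axis) of 9 genes against the distance to the nearest NMJ spot (x axis, in µm, 0 for the NMJ spots, last point 400 µm or more) in muscle spots of control 1, control 2 and β-cat cKO, without error bars. *Etv4* and *Ccnd2* are no higher at the NMJ spots of the β-cat cKO than at its farthest muscle spots, although *Etv4* is lower at 100 to 300 µm. *Chrng* is higher than in the controls at every distance, and *Myog* is higher near the NMJ spots of the β-cat cKO.

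The 5 largest changes in ratio in each direction among well-measured genes included *Ccnd2*, a D-type cyclin gene, which was at 109, 100 and 51.8 CPM at NMJ spots and at 69.6, 66.6 and 67.9 in other muscle. *Tnmd*, a tendon gene, was lower at NMJ spots than in other muscle in all 3 sections, with ratios of 0.363, 0.312 and 0.162. *Pvalb*, the calcium buffer of fast fibers, was below 1 in the controls, at 0.566 and 0.698, and at 1.13 in the β-cat cKO (difference 0.83 ± 0.08, edgeR adjusted p = 4e-15). *Mb*, the myoglobin gene, had ratios of 0.667, 0.780 and 1.1, *Prss35*, a serine protease gene, 0.714, 0.578 and 1.02, *Fst*, the activin inhibitor follistatin, 0.990, 0.731 and 1.33, and *Myo16*, an unconventional myosin gene, 0.960, 0.983 and 1.49. *Mb* was at 72.7, 152 and 74.3 CPM at NMJ spots and at 109, 195 and 67.8 in other muscle. *Myo16* was at 43.6, 35.1 and 33.0 CPM at NMJ spots and at 45.4, 35.7 and 22.2 in other muscle. In other muscle the β-cat cKO was thus below both controls for *Mb* and *Myo16*. The calls of *Prss35* and *Fst* were lost without control 2 (edgeR adjusted p = 0.24 and 0.74) and that of *Myo16* without control 1 (0.13), while those of *Ccnd2* and *Pvalb* held in all 15 alternatives.

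Slow myosin genes had some of the largest falls in the NMJ region. *Myh7*, the slow myosin heavy chain gene, was at 2728.5 and 3856.8 CPM in the controls and 298 in the β-cat cKO (−3.46 ± 0.23, edgeR adjusted p = 1e-05). The slow light chain genes *Myl3* (204, 317 and 3.76 CPM, −6.10 ± 0.38, adjusted p = 7.2e-06) and *Myl2* (465, 616 and 21.4 CPM, −4.66 ± 0.25, adjusted p = 4.2e-06) fell further. *Myh7b*, a further slow myosin, and *Myoz2*, a Z-disc protein gene, fell as well, which makes 5 of 11 genes, beside 6.5% of all genes. *Tnnt1*, *Tnnc1* and *Tnni1*, the slow troponin genes, did not pass the test, with *Tnni1* at 1786.9, 1911.5 and 2745.0 CPM. *Myh7* was low in other muscle too, at 3129.1, 4154.4 and 291 CPM, and spot by spot the median at NMJ spots was 19.2 and 27.5 UMIs per 10000 in the controls and 1.78 in the β-cat cKO. Relative to the muscle genes 4 of the 11 were lower and 2 higher.

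Fast fiber genes were mixed, beside 6.5% of all genes lower and 3.33% higher. Of 10 genes *Myh4*, the fast IIb myosin gene (191, 294 and 64.7 CPM), *Myh2*, the IIa gene (42.2, 65.4 and 15.8), the troponin gene *Tnni2* and the calcium pump gene *Atp2a1* fell. *Pvalb* rose, from 170 and 486 CPM to 1188.2 (1.86 ± 0.40, edgeR adjusted p = 0.014), although its adjusted p with DESeq2 was 0.30. Scaled to the muscle genes, 3 of the 10 were lower and 2 higher.

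Most energy genes fell, beside 6.5% of all genes lower and 3.33% higher. Of 20 genes of creatine, fatty acid and glycogen use and their regulators 16 fell and none rose, with a median of −0.91, and of 82 respiratory chain genes 36 fell and none rose, with a median of −0.55, or 19 without control 2 and 17 without 1 of the E14.5 controls. *Ppargc1a*, the coactivator of mitochondrial genes, was at 58.3, 69.3 and 25.2 CPM (−1.34 ± 0.19, edgeR adjusted p = 0.0015). *Ckmt2*, mitochondrial creatine kinase, was at 2592.2, 2872.7 and 990 CPM, *Coq8a*, which acts in coenzyme Q synthesis, at 411, 516 and 122, and *Pdk4*, which inhibits pyruvate dehydrogenase, at 55.4, 66.0 and 24.3. When counts were scaled to the muscle genes, 5 respiratory chain genes were lower and 5 higher. Of the 20 energy genes 7 were lower on that scale and none was higher.

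Beside 6.5% of all genes, genes of membrane excitability and excitation-contraction coupling fell in 5 of 14 cases. Among them *Atp1b1*, a subunit of the sodium pump, was at 414, 504 and 134 CPM, *Kcnj2*, an inward rectifier potassium channel gene, at 66.6, 73.4 and 26.0, *Clcn1*, the muscle chloride channel gene, at 29.9, 27.3 and 15.7, and *Srl*, the sarcoplasmic calcium store protein sarcalumenin, at 359, 359 and 128. *Scn4a*, the muscle sodium channel gene, was at 198, 210 and 147 CPM (adjusted p = 0.15), and its NMJ-to-muscle ratio was larger than in the controls by 0.42 on the log2 scale (edgeR adjusted p = 0.0046, lost in 8 of 15 alternatives, among them without control 1 or control 2). Scaled to the muscle genes, 4 of the 14 were lower and 3 higher.

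Genes of early muscle differentiation were higher in part, beside 3.33% of all genes higher and 6.5% lower. *Myog* was at 333 and 343 CPM in the controls and 668 in the β-cat cKO (0.98 ± 0.15, edgeR adjusted p = 0.0022). *Mymx*, the fusion peptide myomixer, was at 57.6, 52.1 and 101 CPM (adjusted p = 0.0084), and the factor gene *Klf5* at 34.4, 44.2 and 72.5 (adjusted p = 0.0054). *Myf6*, a late myogenic factor gene, fell (382, 436 and 252 CPM), and 11 of the 15 genes did not pass the test. With muscle scaling 8 of the 15 were higher and none lower. Of 11 developmental sarcomere genes, beside the same shares of all genes, *Myl4*, the embryonic light chain gene, rose from 2414.5 and 2081.7 to 4501.6 CPM. *Acta2* rose from 346 and 339 to 528, while *Myl6b* fell. The levels of the embryonic and perinatal myosin genes *Myh3* and *Myh8* did not pass the test. *Myh3* was at 7986.2 and 7121 CPM in the control NMJ spots and 5926.6 in the β-cat cKO, against 5600.5, 4781.1 and 5344.3 in other muscle, and its NMJ-to-muscle ratio was smaller in the β-cat cKO (difference −0.40 ± 0.09 on the log2 scale, edgeR adjusted p = 0.0067). This call was lost in 5 of 15 alternatives, among them without control 1 (adjusted p = 0.057), without control 2 (0.16) and with DESeq2 (0.49). With muscle scaling 6 of the 11 were higher and none lower. In the E14.5 controls *Myog* was at 957, 811 and 869 CPM and *Myl4* at 4247.9, 3726.8 and 3363.6, above the E18.5 controls in every section.

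Genes listed for the response to denervation, not all of which need rise in it, moved in both directions. Of 12 genes 3 were higher and 3 lower, beside 3.33% and 6.5% of all genes. Beside *Myog*, *Runx1* was at 7.02, 6.0 and 15.2 CPM and *Ankrd1*, a titin-binding stress gene also used as a tendon junction marker, at 57.5, 60.3 and 157 (1.42 ± 0.13, edgeR adjusted p = 0.00013). The adjusted p of *Runx1* was 0.038, and 0.094 without control 2. *Fbxo32*, the atrophy ligase gene, was at 18.2, 22.1 and 6.37 CPM and fell, as did *Hdac9*. With muscle scaling 5 of the 12 were higher and 2 lower, beside 4182 higher and 215 lower of all 12948 genes.

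**Figure D5:**
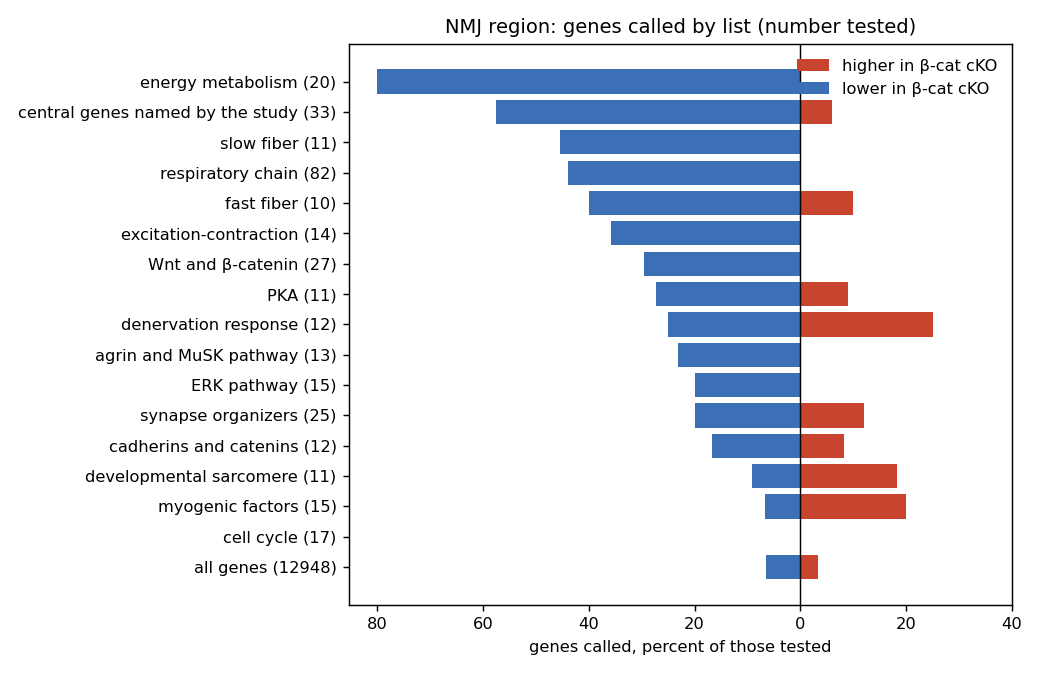
Percent of the tested genes of each list called higher (red, to the right) or lower (blue, to the left) in the NMJ region of the β-cat cKO, with the number tested in parentheses and all genes as the bottom bar. All genes stand at 3.33% higher and 6.5% lower, and the energy list at 80.0% lower.

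By size of change among well-measured genes, the largest rises beside *Pvalb*, *Fst* and *Ankrd1* were in *Col19a1*, a collagen gene of embryonic muscle (14.8, 11.7 and 87.4 CPM, 2.71 ± 0.23), and *Dcx*, the microtubule-binding doublecortin (11.3, 7.79 and 55.5 CPM, 2.53 ± 0.24). *Il17b*, *Igtp*, *Dync1i1*, *Tubb6* and *Gdf10* completed the 10 largest, at log2 differences of 1.34 to 2.10. The average level behind this choice runs over the NMJ spots of all 8 sections, so genes high at E14.5 are favoured in the ranking. In the 3 sections compared *Il17b* was at only 7.76, 3.83 and 25.5 CPM and *Dync1i1* at 10.7, 8.81 and 30.4. The E14.5 controls held them at 161 to 196 and at 42.8 to 57.7 CPM. *Tubb6*, a β-tubulin gene, was at 459, 347 and 1040.2 CPM. Both *Dcx* and *Tubb6* were higher in the E14.5 controls than in those of E18.5, at 70.3 to 107.5 and 1425.5 to 1742.0 CPM. Some other named genes did not lie between the 2 ages in the β-cat cKO. *Igtp*, at 98.7 CPM in the β-cat cKO, was at 36.5, 28.6 and 23.8 in the E14.5 controls, and *Ankrd1* was at 10.8, 8.83 and 10.1. *Myh7*, at 298 CPM in the β-cat cKO, was at 985, 983 and 921 in the E14.5 controls. *Ddit4l*, at 11.6 CPM in the β-cat cKO, was at 71.9, 58.4 and 41.2. The largest falls outside the slow fiber and central genes were in *Fgfrl1*, an FGF receptor-like gene (943, 979 and 160 CPM, −2.59 ± 0.17), *Mylk3*, a myosin light chain kinase gene (93.5, 109 and 11.8), *Tspan12*, a tetraspanin of Norrin and Wnt receptor signalling (211, 199 and 31.0), and *Col2a1*. *Col2a1*, the cartilage collagen gene, was at 1085.3 CPM in control 1 and 32.6 in control 2 against 3.43 in the β-cat cKO, and its log2 difference was −7.34 ± 1.87 (edgeR adjusted p = 0.031), −3.24 without control 1, and not past the test without 1 of the E14.5 controls (0.057). The summed cartilage markers differed between the controls in the same direction, as given above.

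Markers of other cell types shifted alongside these changes. Beside 6.5% of all genes, 3 of 10 Schwann cell markers fell and none rose. Among those that fell were the lineage factor gene *Sox10* (57, 88 and 16 UMIs) and the neurotrophin receptor gene *Ngfr* (152, 146 and 46 UMIs). The summed level of the 10 markers at NMJ spots was 123, 136 and 103 raw CPM, and at other muscle 68.4, 69.5 and 83.6, so that the ratio was 1.80, 1.95 and 1.23. *Ngfr* also had a smaller NMJ-to-muscle ratio (edgeR adjusted p = 0.0040). Of 6 macrophage markers *C1qa*, *C1qb* and *Cd68* rose, beside 3.33% of all genes, and the sum over the list was 182, 210 and 368 raw CPM.

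Of 8 endothelial markers 4 fell (*Tie1*, *Ptprb*, *Cldn5* and *Pecam1*), with sums of 649, 526 and 428 raw CPM, and 1 or 2 were called without control 1 or control 2. Over all genes 6.5% fell and 3.33% rose. Of the tendon markers *Tnmd* fell, and of the smooth muscle markers *Acta2* and *Cnn1* rose and *Smtn* fell. All 5 cartilage markers tested fell, and none of 6 hepatocyte markers was called. No fibroblast, erythrocyte or mesothelium marker passed the test, although 3 of 4 erythrocyte markers were lower with the E18.5 sections alone and 2 of 5 mesothelium markers higher without control 2. With muscle scaling 1 Schwann cell marker and 1 endothelial marker were lower, as were all 6 hepatocyte markers, while 4 macrophage, 6 of 7 fibroblast and 2 mesothelium markers were higher. The part of these shifts in cell makeup in the gene levels above was not tested. Of the 17 cell cycle genes none was called by edgeR or DESeq2 and 7 had an unadjusted edgeR p under 0.05, at a median of 0.38, although 14 were called higher with muscle scaling, 6 without control 1 and 3 without the spots rich in RNA of other organs.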

How the data were processed

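The members and gene lists were chosen with earlier results of these data known. The authors deposited raw UMI counts per spot and gene for 8 diaphragm sections, made with Space Ranger on mm10 with a mouse probe set of 19465 genes. No normalization had been applied, and the authors' spatial scores and their p-values were not used. Seurat is also named in the submitters' processing notes.

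Counts of NMJ spots were summed per section. They were tested with edgeR (version 4.0.16 in R 4.3.3) by the quasi-likelihood test after filterByExpr and TMM, with 5 groups in all 8 sections, 3 residual degrees of freedom and Benjamini-Hochberg adjustment at 0.05. The second test used 2 sums per section (NMJ spots and other muscle), section as a block and a region effect for each group. Sections, not spots, were the replicates, and p-values rest on the spread between control sections, which came from separate samples per the study's description. That spread was shared across genes in both tests, and for the most part so in the test of the ratio. The lone β-cat cKO section was assumed to vary like the controls. Genes of both scores were not tested. The 3 sections share 1239 spot positions, which are barcodes of the slide and not shared cells. Intervals cover counting error only.

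Named genes were the 10 largest called changes in each direction in the NMJ spots and the 5 largest in the ratio, with an average log2 CPM of 5 or more and the β-cat cKO outside both controls, with members of the fixed lists. *Calcrl*, *Map3k7cl*, *Akap11*, *Krt4* and further members of the lists beyond 4 per list fall outside this rule and were chosen after their values were seen. Alternatives changed the share of NMJ spots, the score, the sections, the tool (DESeq2 1.42.0), the scaling and the filter. Scripts were tested on simulated data with an assumed spread. There the test of NMJ spots recovered 50 of 100 genes changed 2-fold, and the test of the ratio 12 of 100. At 4-fold they recovered 100 and 88. A gene that did not pass, above all in the ratio, may therefore still differ. Promoter sequences are from RefSeq. Some genes of the lists are counted but not reported by name here.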

Additional observations from a re-analysis of the deposited data

Results flagged for a closer look

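For 10 well-measured genes the ratio of NMJ spots to other muscle differed between the β-cat cKO and the controls by edgeR's test of the difference itself, across all genes. On the log2 scale the ratio was larger in the β-cat cKO by 0.828 for *Pvalb* (edgeR adjusted p = 4e-15), 0.652 for *Prss35* (0.0033), 0.636 for *Fst* (0.027), 0.619 for *Myo16* (0.010) and 0.588 for *Mb* (6.9e-05). The difference was −3.01 for *Col2a1* (2.4e-15), −1.08 for *Scn3b* (5.8e-17), −1.05 for *Tnmd* (8.2e-08), −1.01 for *Ccnd2* (1.9e-12) and −0.944 for *Myzap* (4.3e-06). DESeq2 called *Pvalb*, *Col2a1*, *Scn3b* and *Ccnd2* among them. Without the spots rich in RNA of other organs the difference of *Col2a1* was −0.86 (edgeR adjusted p = 0.32), and *Myo16* had an adjusted p of 0.099.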

How the results depend on the processing

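No paired analysis was possible because the β-cat cKO has 1 section and the labels name no pairs of sections. In the NMJ spots DESeq2 called 622 genes (177 higher, 445 lower), 582 of them also called by edgeR. Scaling to the 9 muscle genes gave 4397 (4182 and 215), and no filter on low counts gave 1985 (708 and 1277). Leaving out 1 control section gave 919 to 1374 genes, with 295 to 500 higher and 621 to 874 lower. For the ratio of NMJ spots to other muscle, E18.5 sections alone gave 184 genes (67 larger, 117 smaller), DESeq2 gave 7 (1 and 6) and muscle scaling 53 (13 and 40). Larger ratios numbered 63 with *Chrng* in the score, 68 with pooled z-scores and 23 without spots rich in RNA of other organs, a setting chosen after seeing the data. Leaving out 1 control gave 64 to 157 genes, with 15 to 59 larger and 44 to 98 smaller. Signs turned for genes that did not pass the test in the NMJ spots. *Dok7* was at −0.013 with 25% of muscle spots and at −0.036 to 0.145 when 1 control was left out, and *Tnnc1* at −0.207 to 0.116. With muscle scaling *Chrnb1* was at 0.37, *Scn4a* 0.070, *Ctnnb1* 0.44, *Myh3* 0.18 and *Tnnc1* 0.49, and the ratio difference of *Chrne* was −0.10 with pooled z-scores. The cause was not tested. Named genes kept direction and side of the threshold in 843 of 900 comparisons for the NMJ spots and 274 of 315 for the ratio. With 1 β-cat cKO section, variation between mutant embryos is unknown.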
